A study of Canis lupus familiaris with 51 samples.

Results

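The genes described here encode the activators, helper enzymes, inhibitor and substrate of the anaphase-promoting complex (APC/C), with related ubiquitin enzymes, in canine cutaneous mast cell tumors (MCTs). The 10 genes CDC20, FZR1, UBE2C, UBE2S, UBE2T, FBXO5, PTTG1, CDC27, ANAPC1 and SKP2 were looked for by name among the probes of the array. The array held 13 probes for 9 of them, among 35619 different gene names. No probe bore the name SKP2, so this gene was not measured here. CDC20, UBE2S and UBE2T were higher in undifferentiated than in differentiated reference MCTs. CDC20 had the largest difference, 3.04 ± 0.36 on the log2 scale (standard error, n = 5 and 13). Both PTTG1 probes were called higher too, but their signals were mostly near background and they lie antisense to the PTTG1 message. FZR1, FBXO5, ANAPC1 and UBE2C did not pass the test. CDC27 probe 1 passed on p but stayed under the fold limit, and CDC27 probe 2 passed neither.

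APC/C is a large ubiquitin ligase that ends mitosis by marking cyclins and securin for destruction. It works only with an activator, CDC20 from the start of anaphase and FZR1 (CDH1) from late mitosis through G1, and it receives ubiquitin from the conjugating enzymes UBE2C, which starts the chain, and UBE2S, which lengthens it. FBXO5 (EMI1) holds the complex inactive before mitosis, PTTG1 (securin) is a substrate that guards the enzyme separase, and CDC27 and ANAPC1 are subunits of the complex itself. UBE2T is the conjugating enzyme of the Fanconi anemia DNA repair pathway. In cancer, high levels of CDC20, UBE2C and other mitotic genes are known to accompany rapid cell division.

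One piece from the central mass of each of 51 tumors was profiled on single-color Agilent arrays, with 1 array per tumor used here. The paper classed the 18 reference samples by histology as undifferentiated (n = 5) or differentiated (n = 13). Besides grade it used the mitotic index, above 5 in the undifferentiated and 5 or less in the differentiated tumors. Levels of genes of dividing cells in these tumors are thus not independent of the way the classes were chosen. The other 33 samples, called unknown, were given their class in the paper from 13 marker genes measured on these same arrays, 7 as undifferentiated and 26 as differentiated. CDC20 and UBE2S are among those marker genes, so their levels in the unknown samples are given without a test. The paper chose the marker genes for telling the 18 reference samples apart. Tests of CDC20 and UBE2S in those samples are thus not independent of that choice. The dogs of the reference undifferentiated group were 5 to 13 years old (3 males and 2 females), and those of the reference differentiated group were 3 to 13 years old (5 males and 8 females). The dogs of the group predicted undifferentiated were 6 to 14 years old (4 males and 2 females), and those of the group predicted differentiated were 4 to 13 years old (7 males and 18 females). Age was missing for 2 dogs and sex for 2. Breeds were mixed, with crossbred dogs in every group. The undifferentiated reference tumor LM0 was matched to its case by elimination, the others by case number. Levels are log2 signals after quantile normalization over the 51 arrays, a unit on this scale is a doubling, and levels of different probes cannot be set against each other.

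Between 59.4% and 74.8% of spots per array were well above background, and 10 of the 13 probes were so on every array. The exceptions were UBE2C and both PTTG1 probes. The tumors are pieces of tissue, so fewer dividing cells and less RNA per cell cannot be told apart. All 6 measured of the 12 mast cell markers, KIT among them, were well above background in each group. Their mean level ranged from 14.3 to 16.4 in reference undifferentiated, 14.2 to 15.3 in reference differentiated, 12.4 to 16.1 in predicted undifferentiated and 13.9 to 16.3 in predicted differentiated tumors. For 3 of 4 keratinocyte markers the median of their mean level was 4.09 in reference undifferentiated and 14.4 in reference differentiated tumors, against 15.4 and 7.99 in the predicted groups. The mean level ran from 3.80 to 14.4 in reference undifferentiated tumors. Its lowest value in reference differentiated tumors was 3.66, so the classes overlapped. In the reference comparison KRT5 (-2.06 ± 1.66), KRT10 (-2.38 ± 3.64) and KRT1 (-2.99 ± 3.86, standard errors) were not called, with adjusted p of 0.49 or more by limma. None of the 3 was called between the predicted groups either. For all 6 fibroblast markers the median was 13.6 in reference undifferentiated, 15.0 in reference differentiated, 14.4 in predicted undifferentiated and 14.3 in predicted differentiated tumors. In the reference comparison 0 of these 6 had a change above 0 (median of -0.89), and DCN was called lower in undifferentiated tumors (-1.38). Of the other cell markers there, CSF1R of macrophages was called lower (-1.92) and SRGN of mast cells higher (1.23). The other 3 macrophage markers, CD68 (-0.65), CD163 (-0.17) and CD14 (0.67), were not called. The other 5 mast cell markers, from -0.38 to 0.50, were not called either. Of the proliferating cell markers TOP2A (3.37) and PCNA (1.37) were called higher and MCM2 (0.60) was not. For 3 of 4 markers of proliferating cells the median of the mean level was 10.0 in reference undifferentiated and 8.11 in reference differentiated tumors, against 9.26 and 8.34 in the predicted groups. The part of these cells in the results below was not tested.

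The probes of CDC20 and FZR1, the 2 alternative activators, are shown because their levels parted, those of UBE2S because separate stretches of the gene gave like values, and those of PTTG1 because their orientation limits what they measure. The sequences are given 5′ to 3′ as they stand in the scanner files, and the capitals mark the run of 23 bases shared by both PTTG1 probes.
CDC20: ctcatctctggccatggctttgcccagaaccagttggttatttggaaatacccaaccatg
FZR1: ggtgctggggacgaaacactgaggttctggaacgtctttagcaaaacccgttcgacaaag
UBE2S probe 1: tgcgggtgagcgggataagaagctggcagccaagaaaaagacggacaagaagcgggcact
UBE2S probe 3: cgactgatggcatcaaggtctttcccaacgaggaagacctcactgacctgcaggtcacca
PTTG1 probe 1: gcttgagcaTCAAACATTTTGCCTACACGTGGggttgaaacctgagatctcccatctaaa
PTTG1 probe 2: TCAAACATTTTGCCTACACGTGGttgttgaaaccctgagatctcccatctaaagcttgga
The files place the CDC20 probe at chr15:19815570-19815629 and the FZR1 probe at chr20:58934901-58934960, both on the minus strand. UBE2S probe 1 lies at chr1:105363285-105363344, probe 2 at chr1:105363446-105363505 and probe 3 at chr1:105360019-105360078, all on the plus strand. The PTTG1 probes lie at chr4:53511766-53511825 and chr4:53511775-53511832 on the plus strand and overlap, so they are not separate measurements of the gene. The genome build is not named in the files, and exons were not assigned here. The reverse complement of the PTTG1 probes, not the strand printed, reads as securin coding sequence. By that reading these probes lie antisense to the securin message, and which RNA they bind was not tested. On the printed strand probe 2 holds 0 open reading frames of 3, but probe 1 holds 1 on either strand, so this count alone does not give the orientation.

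CDC20, the mitotic activator of APC/C, was read at 9.45 (T57), 9.66 (T73), 10.0 (LM0), 10.1 (T9) and 10.1 (T90) in the 5 undifferentiated reference tumors. In the 13 differentiated reference tumors the lowest level was 5.51, the median 7.04 and the highest 8.21 (T84). The groups did not overlap, and each undifferentiated tumor was above all differentiated ones. The group means were 9.87 ± 0.30 and 6.83 ± 0.80 (SD, n = 5 and 13), a fold of 8.22 with an adjusted p of 9.1e-05 by limma. Within the 4 scan sessions that held both classes the difference ran from 2.86 to 3.74, and it was above 0 in each. Each of these sessions held only 1 undifferentiated reference tumor, against 1 to 4 differentiated ones.

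FZR1, the activator that takes over from CDC20, showed no such split. Its levels were 9.09 (LM0), 9.44 (T90), 9.68 (T57) and 9.91 (T9) in the undifferentiated tumors, with the spot of T73 left out as an outlier. The 9 differentiated tumors with a usable spot lay between 8.91 and 9.63, with a median of 9.24. LM0 was among the differentiated tumors in level, and 6 of these were at or above it. The difference was 0.29 ± 0.17 (standard error) with an adjusted p of 0.32 by limma, on 13 of 18 arrays, and this does not show that FZR1 is equal in the classes.

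UBE2S, which lengthens the ubiquitin chains made by APC/C, was higher in undifferentiated tumors on all 3 probes. On probe 2, its brightest, the levels were 13.1 (T57), 13.2 (T73), 13.2 (T90), 13.5 (LM0) and 13.6 (T9) in undifferentiated tumors. The differentiated tumors had a lowest level of 11.5, a median of 11.7 and a highest of 12.2 (T112). The classes were apart by more than the whole range of either of them. The log2 fold changes of the 3 probes were 1.61 ± 0.14, 1.59 ± 0.12 and 1.63 ± 0.18 (standard error), each a fold of about 3, and the highest adjusted p was 8.1e-05 by limma. None of the 3 overlapped between the classes. The adjusted p of probe 2, 2.8e-06, was lower than that of CDC20 although its fold was smaller, since its levels varied less within each class.

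UBE2T, which serves the Fanconi anemia pathway and not APC/C, rose with them. Its levels were 10.3 (T57), 10.7 (T73), 10.8 (T90), 11.0 (T9) and 11.9 (LM0) in undifferentiated tumors. In differentiated tumors they ran from 6.73 (T100) through a median of 8.50 to 10.0 (T84). T84, the differentiated tumor with the most CDC20, also had the most UBE2T, and it stayed below the lowest undifferentiated tumor. The log2 fold change was 2.51 ± 0.39 (standard error, n = 5 and 13), with an adjusted p of 0.00099 by limma. With scan session as a block the change was 2.46 and the adjusted p 0.021, which ends the call.

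UBE2C, the enzyme that starts the chain on APC/C substrates, could not be judged from its probe, which the files place nowhere on the genome. The probe was well above background in 2 of 5 undifferentiated and 12 of 13 differentiated tumors. Its levels in undifferentiated tumors were 2.59 (T9), 2.66 (LM0), 4.48 (T90), 5.28 (T57) and 5.53 (T73), spread more widely than the 4.34 to 5.70 of the differentiated ones. The log2 fold change was -0.95 ± 0.41 (standard error) with an adjusted p of 0.17 by limma. It was -0.15 after normexp background correction, and it turned to 0.19 with the authors' normalized table and to 0.20 with spots not found set to missing, an alternative chosen after seeing the data. Whether the probe measures UBE2C was not tested.

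FBXO5, the inhibitor of APC/C before mitosis, had levels of 10.4 (LM0), 10.4 (T73), 11.3 (T57) and 11.5 (T9) in undifferentiated tumors. In the 11 differentiated tumors with a usable spot the lowest was 10.0, the median 10.3 and the highest 11.2, so the classes overlapped. The difference of 0.45 ± 0.25 (standard error) had an adjusted p of 0.30 by limma.

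PTTG1 was dim on both probes. On probe 2 the undifferentiated tumors had 4.05 (T73), 4.38 (T9), 4.84 (T90), 5.27 (T57) and 5.77 (LM0), and 3 of the 5 were well above background. The probe was not well above background in any of the 13 differentiated tumors, where the signal ran from 2.03 to 3.94. The mean undifferentiated signal was 2.62-fold higher when counted against a limit on each differentiated array. That limit was the lowest signal well above background, or the spot's own if higher. The mean includes tumors not well above background, so 2.62 is not a strict lower limit. On the measured signals limma gave an adjusted p of 0.0034. Probe 1 was well above background in 4 of 5 undifferentiated and 1 of 13 differentiated tumors, so that its difference of 1.84 on the log2 scale (adjusted p of 0.0081) was taken mostly against signals near background and its size is not settled. Without LM0 neither probe passed, with adjusted p of 0.032 for probe 1 and 0.014 for probe 2, and probe 1 was called in 4 of the 18 fits that left out a tumor. After normexp correction the changes shrank to 0.34 and 0.26 on the log2 scale.

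CDC27, the subunit of the complex which binds the activator, had 2 probes. On probe 1, at chr9:12426613-12426672, the undifferentiated tumors had 7.14 (T73), 7.23 (T90), 7.24 (T9), 7.48 (LM0) and 7.80 (T57), and the 11 differentiated tumors with a usable spot lay between 6.22 and 7.06. The groups did not overlap, and the difference of 0.79 ± 0.15 (standard error) had an adjusted p of 0.0042 by limma, but the fold of 1.73 was under the limit of 2. Probe 2, the brighter of the 2, has its 60 bases spread over 1055 bases of chromosome 9 in the files. It overlapped between the classes and gave 0.33 ± 0.10 with an adjusted p of 0.058. ANAPC1, the largest subunit, ran from 7.25 (T57) to 9.40 (LM0) in undifferentiated and from 6.69 to 8.76 in differentiated tumors, with a difference of 0.48 ± 0.33 and an adjusted p of 0.41.

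**Figure D1:**
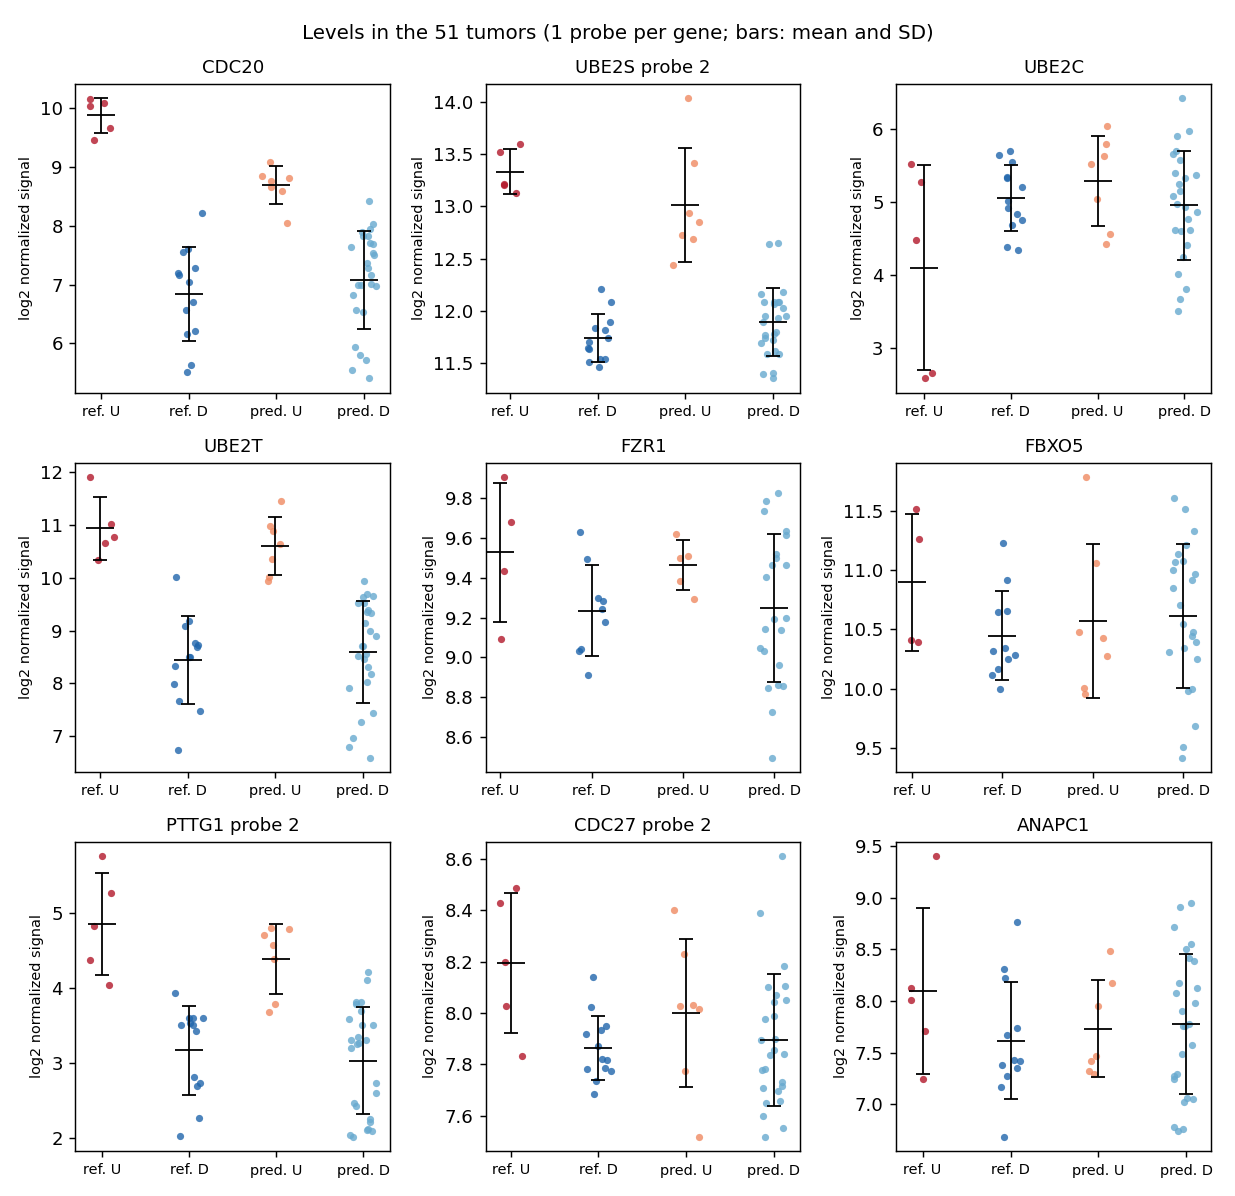
Levels of 9 genes in the 51 tumors, as log2 normalized signal on the vertical axis, with 1 point per tumor and bars for the mean and SD of each group (ref. U and ref. D, reference undifferentiated and differentiated; pred. U and pred. D, unknown samples predicted to be so). CDC20, UBE2S and UBE2T separate the reference classes, FZR1, FBXO5 and ANAPC1 overlap, and the lowest points of UBE2C and PTTG1 are signals near background; spots left out as outliers are not drawn.

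In all, 7 of the 13 probes, for 4 of the 9 genes, were called, all 7 higher in undifferentiated tumors. A call needed a fold of 2 or more and an adjusted p below 0.01. Over the 43580 probes tested, 0.939% were called higher. PTTG1 is among the 4 genes only by its antisense probes. CDC20 and UBE2S were chosen as marker genes on these same tumors, so their calls and lack of overlap are not independent of that choice. The mitotic index helped to set the reference classes, so calls of genes of dividing cells are not independent of it either. The levels of 7 of the 13 probes did not overlap between the reference classes, the same as those called but for CDC27 probe 1 in place of PTTG1 probe 1, against 0.998% of all probes with every undifferentiated tumor above every differentiated one. With scan session as a block 4 of the 13 probes were called, CDC20 and the 3 of UBE2S. With slide as a block 0 were called by limma (7 at an unadjusted p under 0.05), and CDC20 then had a change of 3.89 and an adjusted p of 0.012. Of 9460 named genes, 1 probe each, 2042 were under that unadjusted p with slide as a block. Only 2 slides held both classes, each with 1 undifferentiated and 2 differentiated reference tumors. On these slides the CDC20 difference was 3.74 and 4.04 and the UBE2T difference 2.41 and 3.06.

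**Figure D2:**
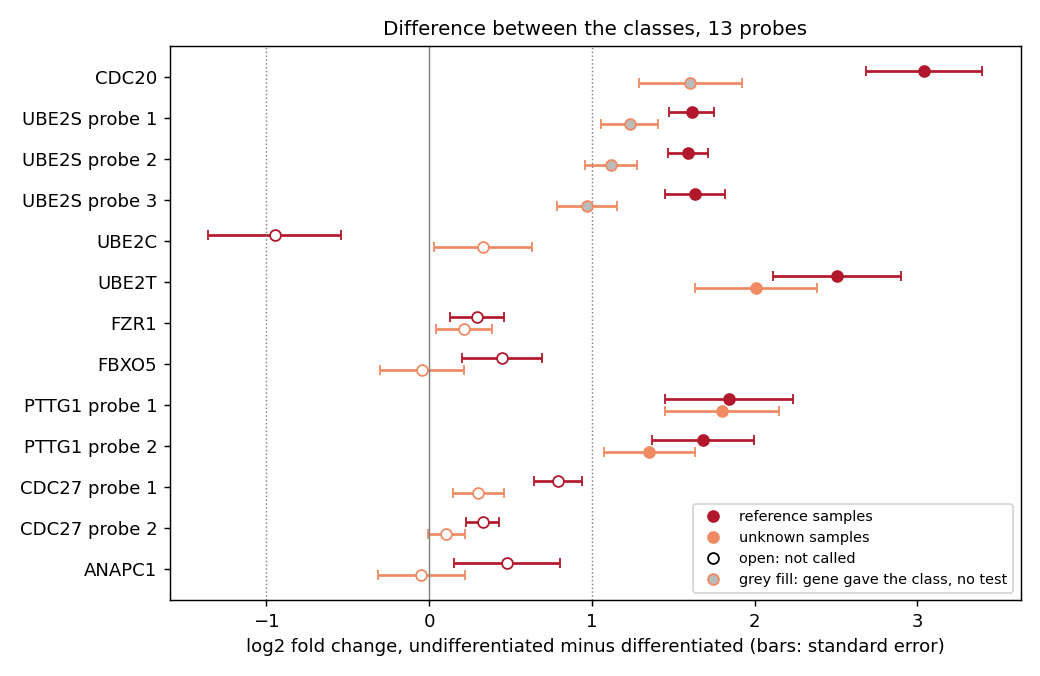
Log2 fold change between the classes on the horizontal axis (undifferentiated minus differentiated) for the 13 probes, in reference samples (red) and unknown samples (orange), with standard errors as bars and dotted lines at a fold of 2. Filled points were called, open points were not, and grey points belong to CDC20 and UBE2S, which helped to set the class of the unknown samples; UBE2T is at 2.51 and 2.01, while FZR1 is at 0.29 and 0.21.

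Next, the unknown samples were compared. Their class was set by 13 genes of the same arrays, CDC20, UBE2S and other mitotic genes among them, so the p-values here are not independent of the way the tumors were chosen and do not repeat the reference comparison in new tumors. This holds for UBE2T too, whose level followed that of CDC20 within the differentiated class (r of 0.88). In the 7 tumors predicted undifferentiated, UBE2T ran from 9.93 (T104) to 11.5 (T49) with a median of 10.6. In the 26 predicted differentiated it ran from 6.59 (T102) through a median of 8.71 to 9.94 (T47). T47 was the only tumor predicted differentiated that reached the level of the other class. The log2 fold change was 2.01 ± 0.37 (standard error, n = 7 and 26) with an adjusted p of 0.0011 by limma. With scan session as a block it was 1.76, with an adjusted p of 0.018.

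Both PTTG1 probes were called as well. Probe 1 was well above background in 5 of 7 tumors predicted undifferentiated and 4 of 26 predicted differentiated, and its difference of 1.80 (adjusted p of 0.0018 by limma) rested on signals near background like that in the reference tumors. Probe 2 had a mean signal 1.96-fold higher, counted against the same kind of limit and again not a strict lower limit. On its measured signals limma gave an adjusted p of 0.0033. After normexp correction the changes were 0.27 for probe 1 and 0.16 for probe 2, both under the fold limit. Probe 2 was well above background in 4 of 7 tumors predicted undifferentiated and in 0 of 26 predicted differentiated. Without T114 neither passed, at adjusted p of 0.011 and 0.016. The other 6 probes tested gave changes between -0.05 and 0.33, and the lowest adjusted p among them was 0.29, for CDC27 probe 1. Thus 3 of 9 probes, for 2 of 7 genes, were called, against 0.72% of all probes called higher. PTTG1 is among the 2 genes only by its antisense probes. With age as a covariate 1 of the 9 was called, UBE2T. With scan session as a block, and likewise with slide, 0 of the 9 were called by limma (4 at an unadjusted p under 0.05 each time). Of 9459 named genes, 1 probe each, 1893 with scan session and 1796 with slide were under that unadjusted p. All levels in the unknown samples overlapped to some extent, since 0 of 13 probes had every tumor of one class above the other, against 0.193% of all probes.

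CDC20 and UBE2S, which helped to give these tumors their class, are described only. CDC20 ran from 8.04 (T80) to 9.08 (T114) with a median of 8.77 in tumors predicted undifferentiated, and from 5.41 (T113) to 8.42 (T58) with a median of 7.22 in those predicted differentiated. The difference was 1.60 ± 0.32 (standard error). UBE2S probe 2 ran from 12.4 (T77) to 14.0 (T114) and from 11.4 (T83) to 12.7 (T58), a difference of 1.12 ± 0.16. On these probes T58 had the highest level of both genes among the tumors predicted differentiated.

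The undifferentiated tumors of the 2 sources were not alike in CDC20. All 5 reference tumors were above the highest of the 7 predicted ones, and the difference between the groups was 1.19 ± 0.43 on the log2 scale, given without a test because CDC20 took part in choosing the predicted ones. The reference ones were chosen in part by a mitotic index above 5, so the CDC20 difference is not independent of the choice of either group. UBE2T differed by 0.33 ± 0.50, with an adjusted p of 0.82 by limma, and UBE2C by -1.18 ± 0.43, with an adjusted p of 0.22. Between the undifferentiated groups 0 of the 9 probes tested were called (1 of 9 at an unadjusted p under 0.05, UBE2C), against 0.0252% of all probes. Between the differentiated groups 0 of 13 probes were called by limma (0 at an unadjusted p under 0.05), against 0% of all probes. The class difference itself was larger in the reference than in the unknown samples by 1.43 ± 0.50 for CDC20, and by 0.50 ± 0.57 for UBE2T with an adjusted p of 0.71. In that test 0 of 9 probes were called by limma (2 at an unadjusted p under 0.05, UBE2C and CDC27 probe 1), against 0.00459% of all probes.

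Sex and age were tested in the 48 tumors with both given. By limma 0 of the 13 probes were called for sex (0 at an unadjusted p under 0.05), against 0.055% of all probes. CDC20 was higher in males by 0.23 ± 0.23 on the log2 scale, with an adjusted p of 0.87. For age 0 of 13 were called (1 at an unadjusted p under 0.05, ANAPC1, with a fall by 0.07 per year), against 0% of all probes.

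Within the differentiated class the members varied together in part. CDC20 and UBE2T correlated with a Pearson r of 0.88 and a Spearman rho of 0.79 in the 26 tumors predicted differentiated, each with a permutation p of 1e-05, the smallest that the permutations allow (adjusted p of 0.00016 over 16 relations). Without the 2 tumors farthest from the median of CDC20 the r was 0.86, and with the mean of each scan session taken off it was 0.93. In the 13 reference differentiated tumors r was 0.83 and rho 0.79, with permutation p of 0.00043 and 0.0021 (adjusted 0.0023 and 0.011), and r was 0.91 without 2 tumors. CDC20 and UBE2S had r = 0.72 and rho = 0.73 in the 26 tumors (permutation p of 4e-05 and 9e-05, adjusted 0.00032 and 0.00072), with 0.63 without the 2 farthest tumors and 0.78 within sessions. In the 13 reference differentiated tumors they had r = 0.27 and rho = 0.36 (permutation p of 0.37 and 0.23, adjusted 0.60 and 0.37). The remaining relations of CDC20, to UBE2C, FZR1, FBXO5, PTTG1, CDC27 and ANAPC1, had adjusted p of 0.054 or more in these permutation tests. No scan session held 6 tumors of a class, so r was not taken within single sessions.

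**Figure D3:**
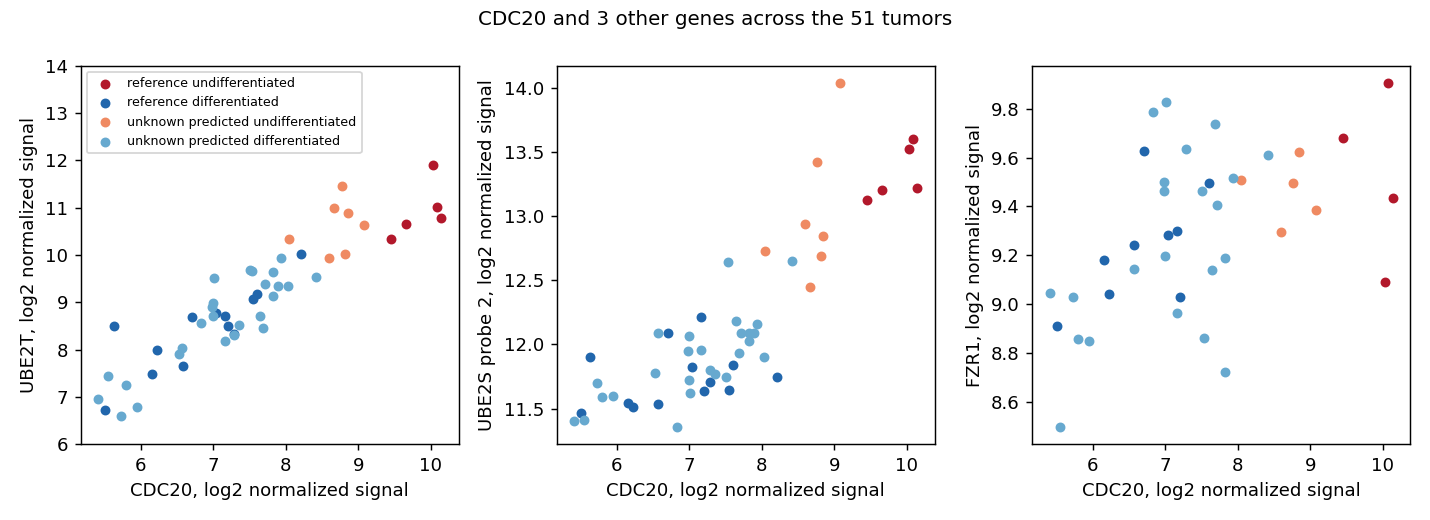
CDC20 on the horizontal axis against UBE2T, UBE2S probe 2 and FZR1 on the vertical axes, all as log2 normalized signal, with 1 point per tumor colored by group. UBE2T rises with CDC20 within the differentiated classes (r of 0.88 and 0.83), and the reference undifferentiated tumors lie farthest right, at 9.45 to 10.1; for FZR1, 40 tumors have a usable spot.

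The genes whose levels followed CDC20 most closely over the 51 arrays, after the mean of each group was taken off, were CCNB2 (r = 0.95), NUF2 (0.93), KIF11 (0.91), FOXM1 (0.91) and SPAG5 (0.91), among 6676 genes well above background on every array. CCNB2 is a mitotic cyclin, NUF2 a kinetochore protein, KIF11 a spindle motor, FOXM1 a transcription factor of mitotic genes and SPAG5 a spindle protein. CCNB2, NUF2 and FOXM1 are also among the marker genes of the class. For FZR1, SLC25A1 (r = 0.56), ANKFY1 (0.56), PRC1 (0.55) and DDB2 (0.55) were among the closest, over 39 or 40 arrays. These values are descriptions, and the arrays share slides and scan sessions.

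The genes around the members were counted from lists of the pathway, 1 probe per gene, beside 9460 named genes of which 1.6% were called higher and 1.19% lower in undifferentiated reference tumors, with a median log2 fold change of 0.03. At an unadjusted p under 0.05 by limma 2740 of these 9460 genes passed, in either direction. Of 20 measured substrates of APC/C, 17 rose, 0 fell and 3 did not pass, with a median of 2.07. CCNB2, a marker gene chosen on these tumors, is among the 17. The mitotic index helped to set the classes, so this count of genes of dividing cells is not independent of that choice. DLGAP5, a spindle protein, rose by 3.70 ± 0.37 (standard error), CDC6, which loads the replication helicase, by 3.53 ± 0.43, RRM2, a subunit of ribonucleotide reductase, by 3.51 ± 0.45, and TOP2A, a DNA topoisomerase, by 3.37 ± 0.49. In these 4 genes all 5 undifferentiated tumors were above all differentiated ones. CDC6 and RRM2 were well above background in only 6 and 4 of the 13 differentiated tumors. The 3 that did not pass were HMMR (1.28), KIF22 (1.12) and ECT2 (-0.27). Leaving out single tumors gave 12 to 17 of the 20, with scan session as a block the count was 11, and with slide as a block it fell to 2.

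For the complex itself, 9 subunits beside CDC27 and ANAPC1 were measured, and 0 were called by limma or by the methods' t-test. With 1.6% of all genes called higher, 0 of 9 is near the share over all genes. At an unadjusted p under 0.05 by limma 2 of the 9 passed, against 2740 of 9460 genes. The changes of the 9 lay between -0.39 and 0.41 with a median of 0.25, against 0.03 over all genes. The spindle checkpoint holds CDC20 back until chromosomes are attached. Of 6 genes that form or regulate it, 2 rose. These were BUB1B, by 2.86 ± 0.38, and MAD2L1, by 2.02 ± 0.23 (standard errors), both part of the complex that binds CDC20. BUB3 (0.58), which is part of that complex as well, did not pass. TRIP13 (1.03), MAD2L1BP (0.28) and MAD1L1 (-0.06) did not pass either.

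Among 23 other ubiquitin-conjugating enzymes 0 were called by limma or the methods' t-test. With 1.6% of all genes called higher, 0 of 23 is near the share over all genes. At an unadjusted p under 0.05 by limma 8 of the 23 passed, against 2740 of 9460 genes. The changes of the 23 ran from -0.49 to 0.80 with a median of 0.08, and UBE2S and UBE2T lay above the highest of them. UBE2J2, of the endoplasmic reticulum, had an adjusted p of 0.0058 by limma but a change of 0.42 only, and is named here after its value was seen. In the SCF-SKP2 list, named for a ligase that acts in G1 and S phase, 1 of 12 genes rose, CCNE1 by 1.52 ± 0.24. The list also holds FBXW7, BTRC, FBXW11 and CCNF, which belong to other SCF ligases. CKS1B, counted among the 12, was well above background on 2 of the 51 arrays, so it could not be judged. CCNE2 (1.82, adjusted p of 0.018) and CCNF (1.91, adjusted p of 0.018) did not pass. Among 9 Fanconi anemia genes, the partners of UBE2T, 2 rose, FANCM by 2.81 ± 0.47 and FANCI, a substrate of UBE2T, by 1.34 ± 0.18. FANCM was well above background in 7 of 13 differentiated tumors. FANCD2, the other substrate, had 1.21 with an adjusted p of 0.011. After normexp correction, and likewise with slide as a block, 0 of the 9 were called by limma (4 at an unadjusted p under 0.05 each time), and with scan session as a block 1 was. Of 9460 genes, 2757 were under that unadjusted p after normexp correction and 2042 with slide as a block. With slide as a block 0 of the 12 genes of the SCF-SKP2 list (6 at an unadjusted p under 0.05) and 0 of the 6 checkpoint genes (4 at an unadjusted p under 0.05) were called by limma.

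**Figure D4:**
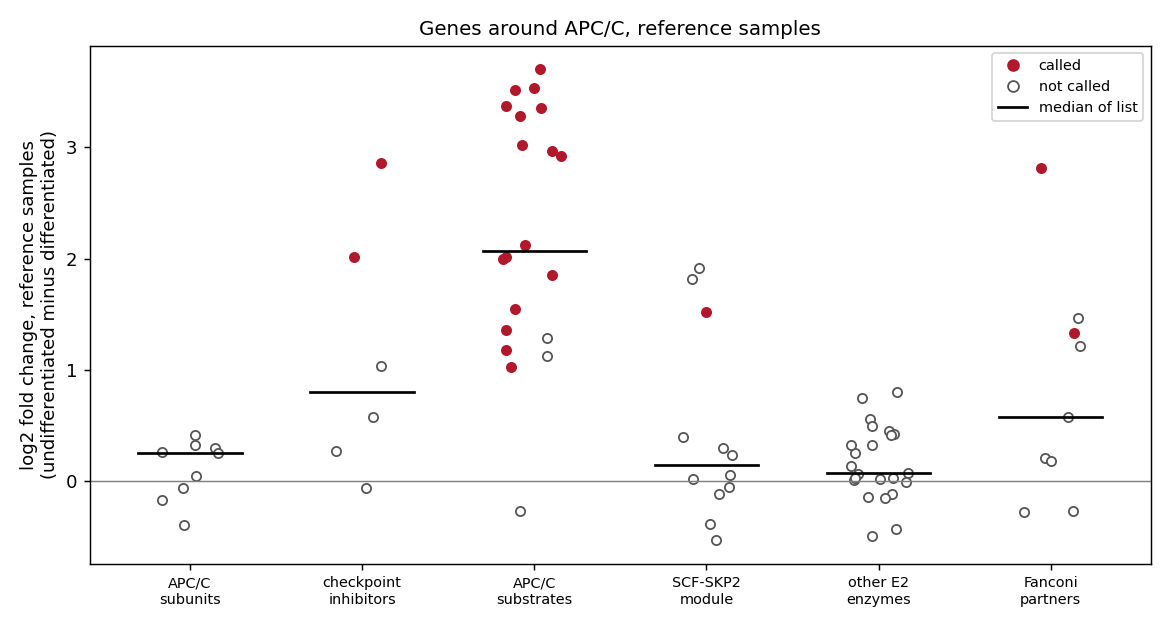
Log2 fold change in reference samples (vertical axis, undifferentiated minus differentiated) of the genes in 6 lists around APC/C, with 1 point per gene, filled where called, and a line at the median of each list. The substrates center on 2.07 with 17 of 20 called, the subunits on 0.25 and the other conjugating enzymes (E2) on 0.08, both with 0 called. Over 9460 genes the median was 0.03, with 1.6% called higher and 1.19% lower.

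In the unknown samples, where 1.3% of genes were called higher and 0.317% lower, the same lists gave 15 of 19 substrates higher, without CCNB2, which gave the class (median 1.39). At an unadjusted p under 0.05 by limma 2282 of 9459 genes passed, in either direction. The subunits had 0 of 9 called by limma or the methods' t-test (1 at an unadjusted p under 0.05), with a median of -0.04. The other conjugating enzymes had 0 of 23 (8 at an unadjusted p under 0.05), with a median of 0.15. BUB1B (1.96) and MAD2L1 (1.09) rose again, as did FANCM (1.88) and FANCI (1.11). In the SCF-SKP2 list CCNE1 (1.29), CCNE2 (1.58) and CCNF (1.79) rose. These counts depended on the processing. At an unadjusted p under 0.05 by limma, 2292 of 9459 genes passed after normexp correction, 1893 with scan session and 1796 with slide as a block. The substrates had 4 of 19 called higher after normexp correction, 10 with scan session as a block and 3 with slide as a block, with medians of 0.85, 1.48 and 1.40. The 3 genes called in the SCF-SKP2 list became 0 after normexp correction (5 at an unadjusted p under 0.05), 1 with scan session and 0 with slide (4), by limma. The 2 Fanconi anemia genes became 0 after normexp correction (5), 1 with scan session and 0 with slide (4). The 2 checkpoint genes became 1 after normexp correction and 0 with either block (4 at an unadjusted p under 0.05 each time). Like the values of the members, the counts are not independent of the way the class was set.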

How the data were processed

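The deposited files hold 1 single-color array for each of 51 tumors. The authors extracted the scans with Feature Extraction 9.5 and deposited the background-subtracted processed signal of each spot as an intensity, not normalized between arrays. They also deposited intensities quantile-normalized over the arrays, used here as an alternative. Here its log2 values were quantile-normalized over the 51 arrays. Spots with outlier flags (718 to 3291 per array) were dropped, and the remaining spots of a probe were averaged (43603 probes). limma 3.58.1 in R 4.3.3 compared the groups, with Benjamini-Hochberg adjustment over all probes, in place of the SAM program of the methods, which called genes at a set false discovery rate. An unpaired t-test on the same values, called the methods' t-test here, was run with and without that adjustment. A call needed a fold of 2 or more and an adjusted p below 0.01 (no fold limit for sex and age). Beside counts at an unadjusted p under 0.05, a count over all genes was taken only for the reference and unknown comparisons. Figures were drawn with matplotlib 3.10.9. The limma fit and the call rule were tested on simulated log2 levels, and the other steps were not.

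Classes came from the paper, matched by case number, since the labels give none. No p is given for CDC20 and UBE2S in comparisons with the tumors predicted undifferentiated. A gene with several probes was represented by the one with the highest mean level. Named list genes were the called genes with the largest changes, up to 4 per list, and values are also given for some that did not pass. Members and lists were chosen with earlier results of these data known. List genes were counted where the array holds the symbol and RefSeq (assembly UU_Cfam_GSD_1.0) lists it. No 2 arrays were identical. The number of tumors limits the precision. The values of 1 marker gene of the class prediction and of 1 gene among those most like FZR1 are not reported here.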

Additional observations from a re-analysis of the deposited data

How the results depend on the processing

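The 13 probes were recomputed under alternatives of normalization, background correction, flags, filter, threshold, block, covariate and sample. Of 454 values in the reference comparison 421 kept their side of the threshold, and 2 had the opposite sign, both of UBE2C. Of 298 values in the unknown comparison 283 were counted as unchanged, with the opposite sign in 9, all of FBXO5 and ANAPC1, which were near 0. The 283 include 23 values each of CDC20 and the 3 UBE2S probes, which had no test and so could not change side. The count of probes called was 7 in the reference comparison and 4 with scan session and 0 with slide as a fixed block. It ran from 5 (without LM0) to 7 when single tumors were left out. In the unknown comparison the count of 3 became 1 after normexp correction, 0 with scan session and 0 with slide as a fixed block, and 1 with age as a covariate, and it ran from 1 (without T114) to 3 when single tumors were left out. The slide block leaves few tumors to compare within slides. It turned no sign among the called probes, and the causes of the other changes were not tested. With spots not found set to missing, an alternative chosen after seeing the data, 6 and 3 probes were called. In the other comparisons 0 probes were called under every alternative run. Over all probes 783 were called in the reference comparison, and 1695 at an adjusted p under 0.05, 410 after normexp correction, 313 with scan session as a block, 64 with slide as a block, 1993 by an unpaired t-test without adjustment and 518 without LM0. In the unknown comparison 420 were called, and 802, 203, 203, 91 and 1073 under the first 5 of these settings, 850 with no fold limit, 244 with age as a covariate and 205 without T114. Between the undifferentiated groups 11 of all probes were called, with 2 to 61 under the alternatives, and for the difference of class effects 2, with 0 to 19. No paired analysis was possible because each tumor came from a different dog and case numbers are not shared between groups. PTTG1 and UBE2C are limited by signals near background, and FZR1 by spots missing on 11 arrays.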
